A study of Mus musculus with 8 samples.

Results

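Cytosolic ribosomal protein genes encode the proteins that, with ribosomal RNA, build the small (40S) and large (60S) subunits of the ribosome outside mitochondria. Genes were taken by name: Rpl or Rps followed by a number and at most 1 of the letters a, l or x, plus the stalk genes Rplp0, Rplp1 and Rplp2 and the laminin receptor gene Rpsa. Names with "-ps", which mark pseudogenes, were left out, and a sum of at least 400 counts over the 8 libraries was required. Of 83 genes with such a name, 77 met the count limit, out of 55487 genes in the table and 13312 genes with enough counts to test. All 77 passed the filter on low counts used for the test. They comprise 31 genes of the 40S subunit and 46 of the 60S subunit.

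The livers came from male mice of the inbred strain C57Bl/6J, about 10 weeks old. The sorbate group (4 libraries) received 17 mg of potassium sorbate by oral gavage and the control group (4 libraries) received water, and livers were taken 4 hours later in both. Sorbate, a short fatty acid with double bonds, serves as a preservative in food. The title of the series concerns lysine sorbylation, class I histone deacetylases and inflammation genes. Poly(A) RNA of whole liver was sequenced, so a lower value may come from fewer cells of a type or from less RNA per cell, and these cannot be told apart. The labels do not say whether each library is a separate animal, and p-values then reflect only how far these libraries vary, which may be technical.

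Ribosomal proteins are needed in near equal numbers, because most are present as a single copy in each ribosome. Their mRNAs are among the most abundant of every cell, and most begin with a C inside a run of pyrimidines, the terminal oligopyrimidine (TOP) motif. That motif lets the kinase complex mTORC1 and the RNA-binding protein Larp1 control their translation and storage together. In liver, production of ribosomes is known to follow feeding, growth signals and stress.

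The TOP motif was looked for around the annotated transcription starts of the members, since it is the sequence that ties these mRNAs together. RefSeq promoters (GRCm38.p6) were found for 55 of the 77 genes. The following windows of 30 bases, 15 on each side of the annotated start boundary, are printed on the gene's strand with the longest run of C and T in capitals. The genes printed are examples, and shorter runs occur in other members. Among genes called lower, the longest run was 3 bases in Rpl23 and 5 bases in Rps16. Among genes not called, it was 3 bases in Rpl10 and Rpl41. Of the genes printed, the first 4 were called lower after sorbate, and the other 4 were not.
Rpl15: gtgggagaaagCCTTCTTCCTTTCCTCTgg
Rps21: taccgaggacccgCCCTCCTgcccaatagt
Rpl12: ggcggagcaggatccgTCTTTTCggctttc
Rps26: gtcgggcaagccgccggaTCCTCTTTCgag
Rps6: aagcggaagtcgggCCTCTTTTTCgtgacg
Rplp2: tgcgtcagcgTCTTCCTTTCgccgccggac
Rpl4: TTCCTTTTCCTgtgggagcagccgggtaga
Rps2: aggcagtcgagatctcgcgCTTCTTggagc
The windows lie at chr14:18270972-18271001 (minus strand) for Rpl15, chr2:180257364-180257393 (plus) for Rps21, chr2:32961697-32961726 (plus) for Rpl12 and chr10:128626492-128626521 (minus) for Rps26. Those of the other 4 genes lie at chr4:86857353-86857382 (minus) for Rps6, chr7:141447636-141447665 (plus) for Rplp2, chr9:64173372-64173401 (plus) for Rpl4 and chr17:24720048-24720077 (plus) for Rps2. In Rpl15, Rps21, Rps6 and Rplp2 the run crosses the annotated start. Rps21 has a further annotated start that is not printed, where the longest run is 4 bases and begins after the start. In the printed windows of Rpl12, Rps26 and Rps2 the run begins after the start, and in that of Rpl4 it ends before the start. Runs that cross the start and runs beside it both occur among genes that were called and among genes that were not.

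A C at the annotated start followed by 4 pyrimidines (C or T) was present in 12 of the 55 matched members (21.8%) and in 3.01% of 27025 RefSeq genes. Allowing the C to lie within 10 bases of the start gave 61.8% of members and 34.4% of all genes. A run of at least 8 pyrimidines beginning within 15 bases of the start was found in 49.1% of members and 16.5% of all genes. In the 300 bases of promoter (250 before and 50 after the start), both strands were also searched for short motifs. The ETS-type motif CCGGAAG was found in 41.8% of members and 9.93% of all genes. The Sp1-type motif GGGCGG was found in 61.8% and 38.2%, the YY1-type motif AAGATGG in 16.4% and 7.28%, the TATA box TATAAA in 10.9% and 15.7%, and the E-box CACGTG in 10.9% and 8.09%. The median log2 fold change after sorbate was −0.42 for the 12 members with the pyrimidine start and −0.37 for the 43 matched members without it. It was −0.42 for the 23 members with the ETS-type motif and −0.36 for the 32 without it. These medians are a description and were not tested.

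The summed level of the ribosomal protein transcripts was lower after sorbate. It was 10205, 12055, 11418 and 9782 CPM (read counts divided by library size and put on a common scale) in sorbate libraries 1 to 4, against 12609, 12418, 14635 and 17239 CPM in control libraries 1 to 4. These CPM values use library sizes adjusted by TMM, a scaling that sets the typical gene equal between libraries. The sorbate libraries all lay below the control libraries, and control 4 stood highest. The means were 10865 ± 1054 CPM in the sorbate group and 14225 ± 2246 CPM in the control group (SD, n = 4 each), a difference of −23.6%. Without TMM, the members held 1.06, 1.29, 1.18 and 1.02% of all counts in sorbate libraries 1 to 4, against 1.19, 1.25, 1.40 and 1.58% in control libraries 1 to 4. On that scale the groups overlapped, since sorbate 2 lay above control 1 and control 2. The means were 1.13% ± 0.121 and 1.36% ± 0.172 of counts in the sorbate and control groups (SD, n = 4 each), a difference of −16.4%. Sums over the members were not tested.

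**Figure D1:**
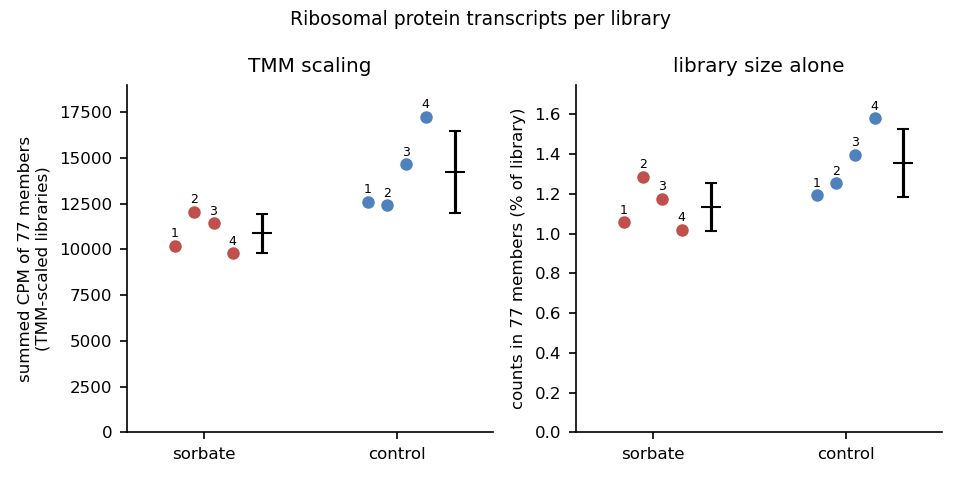
Summed level of the 77 ribosomal protein genes in each library, as TMM-scaled CPM (left) and as a percentage of the library's counts (right); points are libraries with their replicate number, and the black marks are group means with SD bars (n = 4). On the left the sorbate libraries sit between 9782 and 12055 CPM, all below the control libraries, while on the right sorbate 2 lies above control 1 and control 2.

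Total counts per library ran from 15773932 to 25844731, and the smallest library was sorbate 4. TMM factors were between 1.03 and 1.07 in the sorbate libraries and between 0.917 and 1.01 in the control libraries. The choice of scaling therefore moves every gene: over all 13312 genes the median log2 fold change was −0.02 with TMM and 0.11 with library size alone, a shift of 0.12. Relative to that median, the members' median was −0.38 with TMM and −0.37 with library size alone. Mitochondrially encoded transcripts took 5.40% ± 1.33 of counts in the sorbate group and 5.09% ± 0.917 in the control group (SD, n = 4 each).

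Gene by gene, 12 of the 77 members (15.6%) were lower and 0 were higher after sorbate at an adjusted p under 0.05 in the quasi-likelihood test of edgeR, adjusted over all 13312 genes by the Benjamini-Hochberg method. Among all genes tested, 6.3% were called lower and 6.14% higher. Of the 2258 other genes with a mean of at least 50 CPM, a level nearer to that of most members, 9.21% were called lower and 11.6% higher. The members' log2 fold changes had a median of −0.40, which is a change of −24.1%, and 76 of 77 were below zero. They ran from −0.61 (Rps27a) to 0.03 (Rps4l), with quartiles at −0.46 and −0.32. In 32 members (41.6%) every sorbate library lay below every control library, against 8.32% of all genes tested. At an adjusted p under 0.1, 37 members were lower, against 10.6% of all genes. With library size alone, 0 members were called in either direction, against 4.13% of all genes called lower and 9.77% called higher. On that scale the members' median was −0.26 (−16.7%), 76 of 77 were still below zero, and 6 showed no overlap, against 4.88% of all genes. The direction of single members was thus nearly uniform on both scales, but members were called with TMM and not with library size alone.

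The number of members called depended on which libraries entered. It was 0, 2, 0 and 0 without sorbate 1, 2, 3 and 4, where 3.15, 4.23, 2.73 and 2.7% of all genes tested were called lower. It was 8 without control 1, 49 without control 2, 0 without control 3 and 1 without control 4, where 3.64, 14.1, 2.64 and 3% of all genes tested were called lower. In 7 of the 8 omissions, all but that of control 2, the share of all genes called lower was also below 6.3%. The median log2 fold change of the members was −0.27 without control 4 and between −0.45 and −0.27 over the 8 omissions, below zero in each. DESeq2 called 30 members lower (8.21% of all genes) and limma-voom with sample quality weights called 63 (14.6% of all genes). A fit with 1 surrogate variable called 0 members lower (2.2% of all genes), with a median of −0.27. That variable lay between 0.0844 and 0.305 in the sorbate libraries, against 0.471 in control 2 and −0.532 to −0.365 in the other controls, so it moves partly with the groups.

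**Figure D2:**
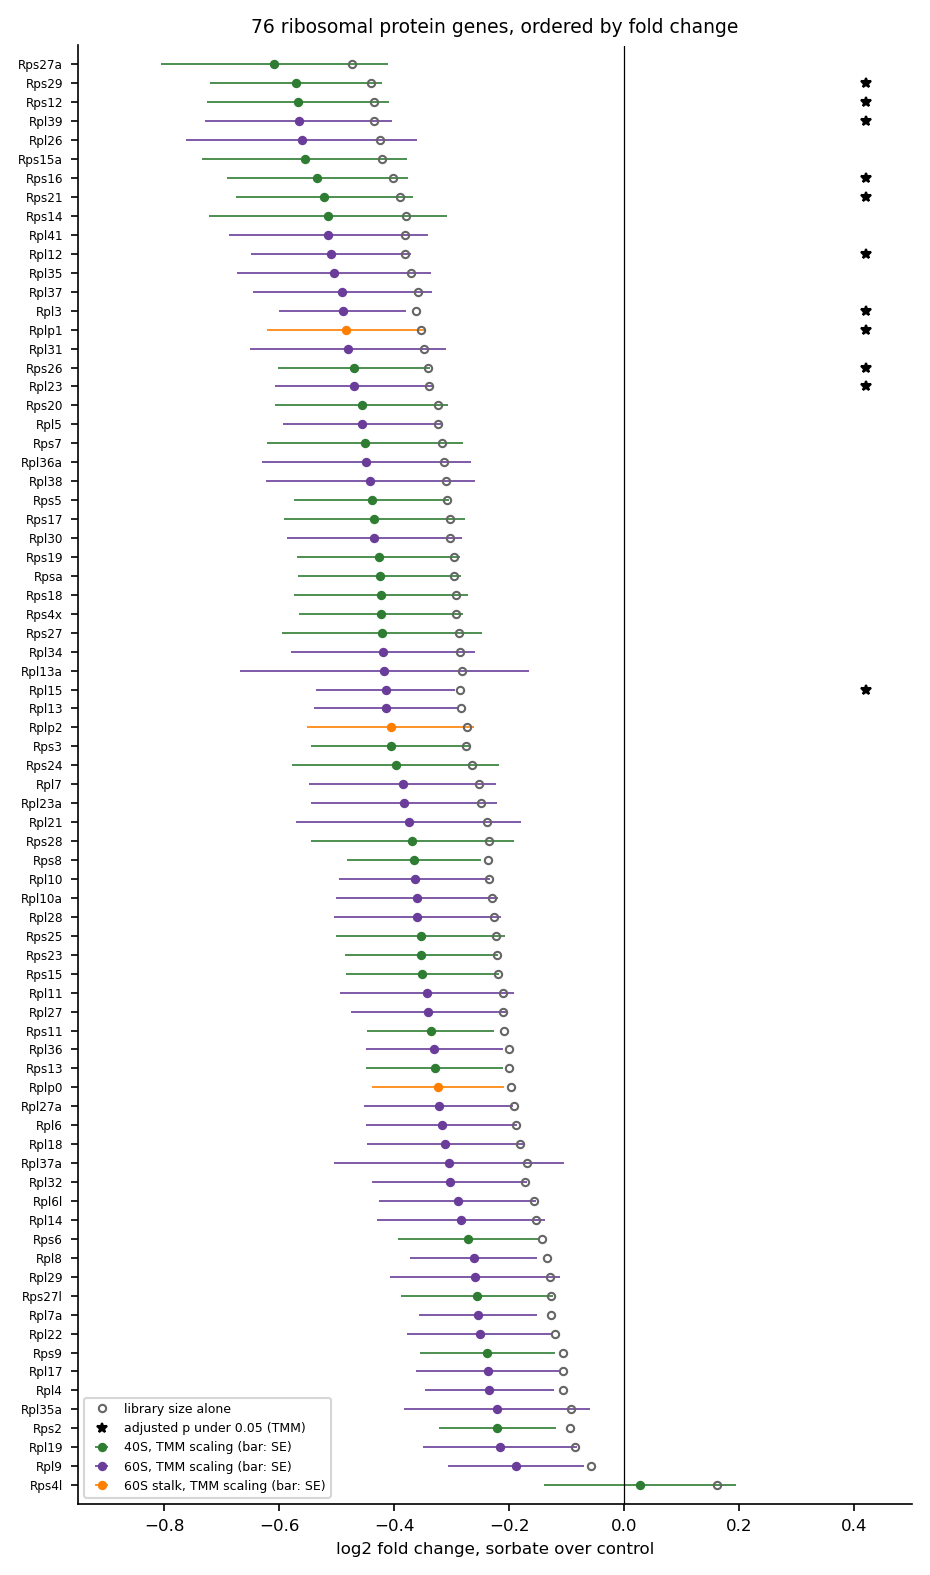
Log2 fold change (sorbate over control) of 76 of the 77 ribosomal protein genes, ordered by size; filled points use TMM scaling, with bars of 1 standard error and colours for the subunit, open circles use library size alone, and stars mark an adjusted p under 0.05 with TMM. All genes drawn other than Rps4l lie left of zero on both scales, and library-size values lie to the right of the TMM values by about the shift of all genes, 0.12.

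The 40S members had a median log2 fold change of −0.42, and 5 of 31 were called lower: Rps29, Rps12, Rps16, Rps21 and Rps26. In 17 of the 31 the groups did not overlap. Of all genes tested, 6.3% were called lower, and in 8.32% every sorbate library lay below every control library. Rps29 encodes a small zinc-binding protein of the subunit's head. Its level was 122, 134, 151 and 121 CPM in sorbate libraries 1 to 4, against 162, 175, 195 and 251 CPM in control libraries 1 to 4. The groups did not overlap, and control 4 was well above the other controls. The log2 fold change of Rps29 was −0.57 (SE 0.15, edgeR adjusted p = 0.0327). Rps12 had 73.1, 80.3, 88.0 and 70.0 CPM after sorbate, against 93.8, 93.8, 128 and 146 CPM in the controls. Controls 1 and 2 stood close to the sorbate libraries and controls 3 and 4 well above them. Its log2 fold change was −0.57 (SE 0.16, edgeR adjusted p = 0.0423).

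Rps26, whose product lies near the exit of the mRNA channel, had 82.0, 87.4, 99.5 and 83.7 CPM in sorbate libraries 1 to 4, against 109, 108, 119 and 152 CPM in control libraries 1 to 4. All sorbate values were lower than all control values, with a log2 fold change of −0.47 (SE 0.13, edgeR adjusted p = 0.0423). Rps16 fell by 0.53 (SE 0.16, adjusted p = 0.0493) and Rps21 fell by 0.52 (SE 0.15, adjusted p = 0.0494) on the log2 scale, both just inside the threshold. The start windows of Rps21 and Rps26, printed above, hold pyrimidine runs at or just after the start.

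Rps27a, which encodes ubiquitin fused to a small subunit protein, had the lowest fold change of all members but was not called. It had 153, 158, 114 and 133 CPM in sorbate libraries 1 to 4, against 170, 169, 203 and 307 CPM in control libraries 1 to 4. The groups did not overlap, and control 4 lay far above the other controls; the log2 fold change was −0.61 (SE 0.20, edgeR adjusted p = 0.0685). Rpsa, the laminin receptor homologue in the subunit, had 326, 410, 397 and 310 CPM after sorbate, against 422, 456, 494 and 565 CPM in the controls. Again the groups did not overlap, and its log2 fold change was −0.42 (SE 0.14, adjusted p = 0.0743).

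Rps6, the subunit protein phosphorylated by S6 kinases downstream of mTORC1, had 173, 203, 209 and 175 CPM in sorbate libraries 1 to 4, against 218, 198, 244 and 258 CPM in control libraries 1 to 4. Control 2 lay among the sorbate libraries. The log2 fold change was −0.27 with a 95% interval of −0.54 to −0.00213 (edgeR adjusted p = 0.166). Rps2, whose product lines the mRNA entry side, had 241, 271, 265 and 254 CPM after sorbate, against 318, 291, 291 and 302 CPM in the controls. These groups did not overlap, yet the difference was small at −0.22 (SE 0.10, adjusted p = 0.174). Other 40S members with an adjusted p above 0.05 include Rps15a at −0.56, Rps18 at −0.42, Rps24 at −0.40, Rps4x at −0.42 and Rps9 at −0.24.

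The 60S members had a median log2 fold change of −0.37, and 7 of 46 were called lower, among them Rpl39, Rpl12, Rpl3, Rplp1, Rpl23 and Rpl15. In 15 of the 46 the groups did not overlap. The shares over all genes tested were 6.3% called lower and 8.32% with every sorbate library below every control library. Rpl3 encodes a core protein near the site where peptide bonds form. It had 206, 218, 200 and 188 CPM in sorbate libraries 1 to 4, against 265, 264, 318 and 292 CPM in control libraries 1 to 4. The groups were well apart, and unlike most members Rpl3 was highest in control 3, not control 4. Its means were 203 ± 12.4 CPM after sorbate and 285 ± 25.7 CPM in controls (SD, n = 4 each), and its log2 fold change was −0.49 (SE 0.11, edgeR adjusted p = 0.0187). This was the lowest adjusted p of any member, and Rpl3 was called in 4 of the 8 fits that left out 1 library.

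Rpl39, a small protein of the peptide exit tunnel, fell by 0.57 (SE 0.16, edgeR adjusted p = 0.0462) on the log2 scale. Rpl12, at the base of the stalk, had 102, 114, 109 and 90.1 CPM after sorbate, against 118, 136, 166 and 171 CPM in the controls. Control 1 lay just above sorbate 2, and the log2 fold change was −0.51 (SE 0.14, adjusted p = 0.0377). Rpl23, at the subunit interface, fell by 0.47 (SE 0.14, adjusted p = 0.0483) and Rpl15 fell by 0.41 (SE 0.12, adjusted p = 0.0484).

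The stalk proteins recruit elongation factors to the ribosome. Rplp1 had 255, 304, 291 and 237 CPM in sorbate libraries 1 to 4, against 333, 349, 380 and 457 CPM in control libraries 1 to 4. All sorbate libraries were lower, with a log2 fold change of −0.48 (SE 0.14, edgeR adjusted p = 0.0452). Its partner Rplp2 had 60.8, 71.3, 70.9 and 62.3 CPM after sorbate, against 95.7, 66.3, 83.5 and 106 CPM in the controls. Control 2 fell among the sorbate libraries, and the value of −0.41 (SE 0.15) did not pass the test (adjusted p = 0.0912). Rplp0, which anchors the stalk, had 319, 375, 377 and 318 CPM after sorbate, against 424, 409, 450 and 455 CPM in the controls. These groups did not overlap, but at −0.32 (SE 0.11) the adjusted p was 0.0884.

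Rpl5 and Rpl11 form a particle with a small ribosomal RNA and, when free, bind Mdm2, the ubiquitin ligase of p53. Rpl5 had 238, 243, 233 and 217 CPM in sorbate libraries 1 to 4, against 288, 259, 346 and 383 CPM in control libraries 1 to 4. The groups did not overlap, and the log2 fold change of −0.46 (SE 0.14) had an edgeR adjusted p of 0.0530, just outside the threshold. Rpl11 had 154, 194, 179 and 149 CPM after sorbate, against 181, 182, 231 and 263 CPM in the controls. Sorbate 2 lay above controls 1 and 2, and the log2 fold change was −0.34 (SE 0.15, adjusted p = 0.157).

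Rpl4, whose product lines the exit tunnel, had the most counts of all members. It had 436, 439, 415 and 410 CPM in sorbate libraries 1 to 4, against 479, 451, 536 and 537 CPM in control libraries 1 to 4. The groups did not overlap, but the difference was among the 8 smallest, at −0.24 with a 95% interval of −0.48 to 0.01 (edgeR adjusted p = 0.191). Rpl9 at −0.19 (adjusted p = 0.314), Rpl19 at −0.22, Rpl35a at −0.22 and Rpl17 at −0.24 also lay at the small end. Rpl26 at −0.56 (SE 0.20, adjusted p = 0.0910) and Rpl41 at −0.51 (SE 0.17, adjusted p = 0.0760) lay at the large end without passing the test.

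**Figure D3:**
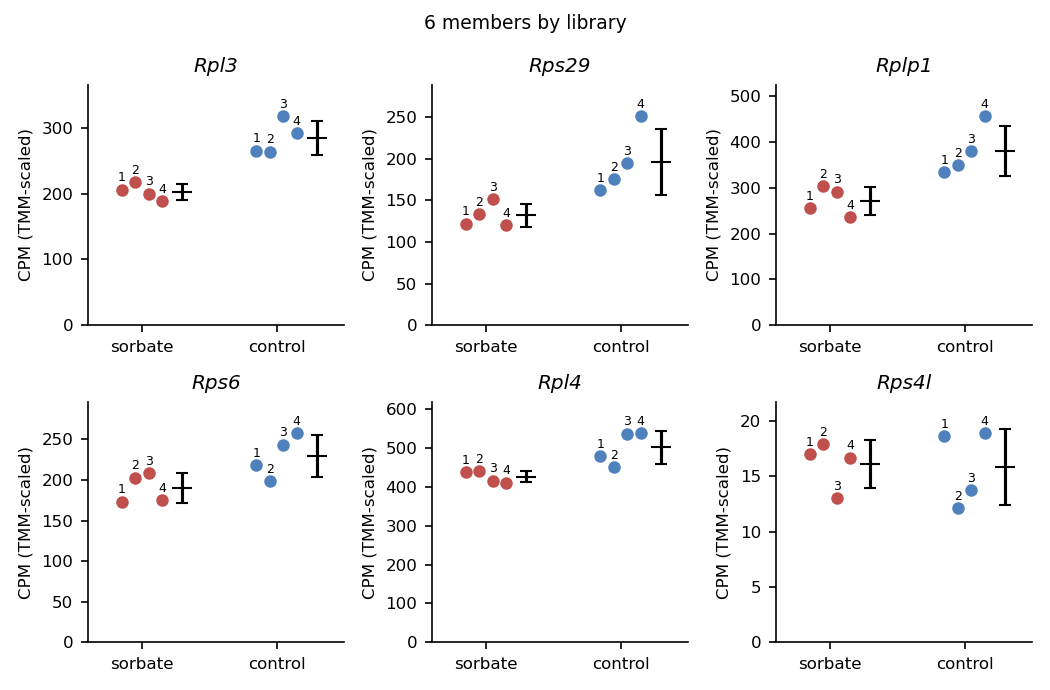
TMM-scaled CPM of 6 ribosomal protein genes in each library; points are libraries with their replicate number, and the black marks are group means with SD bars (n = 4). Rpl3, Rps29 and Rplp1 were called lower after sorbate with no overlap between groups, Rpl4 did not overlap but was not called, control 2 lies among the sorbate libraries for Rps6, and the groups of Rps4l cover each other.

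Per kilobase of transcript, the highest mean levels were those of Rpl41, Rplp1, Rps18, Rps24, Rpl10 and Rps29, in that order. Rpl41, the shortest ribosomal protein known in mouse, stood at 540 CPM per kilobase in the sorbate group and 771 in the control group. Rplp1 followed at 544 and 761 CPM per kilobase, and Rps29 at 338 and 502. The lowest were Rpl13a at 6.87 CPM per kilobase after sorbate and 9.21 in controls, and Rps4l at 17.1 and 16.8. These values rest on the annotated transcript chosen for each gene, of 345 to 5179 nucleotides, and on how reads of repeated sequences were counted. Across the 77 members, log2 fold change had a correlation of −0.11 (Pearson) and 0.05 (Spearman) with transcript length, and of −0.15 and −0.03 with log2 mean CPM. Members share libraries and scaling, so these are descriptions.

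By transcript length, the members' medians were −0.43 under 500 nucleotides (13 members), −0.36 from 500 to under 1000 nucleotides (41 members) and −0.41 at 1000 nucleotides or more (23 members). In the same classes the other genes tested had medians of −0.20 (349 genes), −0.11 (1185 genes) and −0.00230 (11695 genes). With library size alone the members' medians were −0.30, −0.23 and −0.28 in these classes, and those of the other genes were −0.08, 0.02 and 0.12. Within each class the members' median lay below that of the other genes on both scales. For the other genes, the sign turned in both classes of 500 nucleotides or more. Other genes with a mean of at least 50 CPM had a median of 0.03.

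The members varied together within groups. Over the 8 libraries, after removing group means, the correlation between pairs of members had a median of 0.83 over 2926 pairs, and 91.6% of pairs were above 0.5. These share libraries and scaling factors, and the figure is a description. Rps19 followed the mean of the other members most closely (r = 0.99), and Rps2 (r = 0.27) and Rps4l (r = 0.28) least. Control 4 was the highest of all libraries for 75 of the 77 members. The lowest library was sorbate 4 for 46 members and sorbate 1 for 27. Within the sorbate group, sorbate 2 was highest for 53 members.

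**Figure D4:**
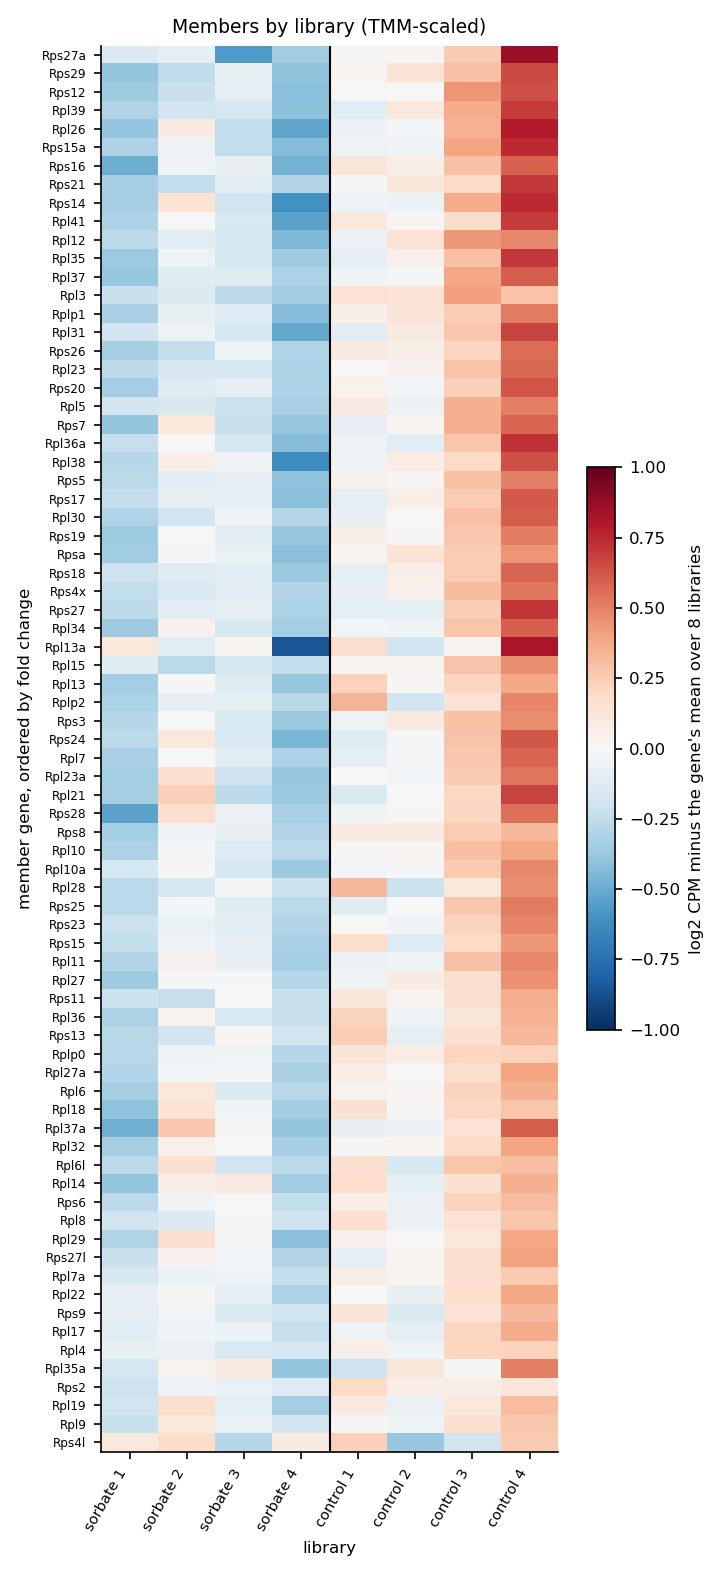
TMM-scaled log2 CPM of 76 of the 77 ribosomal protein genes minus the gene's mean over the 8 libraries, with sorbate libraries to the left of the line and control libraries to the right; genes are ordered by fold change. Control 4 is the highest library in nearly every row, and sorbate 4 or sorbate 1 is the lowest in most.

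When the libraries were scaled so that the members' own pool was equal, single members did not stand apart. Their log2 fold changes then ran from −0.19 to 0.42 (Rps4l), and 0 of 77 passed the test in either direction, against 2.01% of all genes called lower and 17% called higher; 0 also had an unadjusted p under 0.05 in edgeR. No change in composition within the pool was thus detected with this number of libraries, which does not show that there was none.

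Rps4l and Rpl6l are annotated as processed pseudogenes, copies made from mRNA, and the other 75 members as protein coding. All 75 coding members lay below zero, with a median of −0.406. Rps4l had 17.0, 17.9, 12.99 and 16.7 CPM in sorbate libraries 1 to 4, against 18.6, 12.1, 13.7 and 18.9 CPM in control libraries 1 to 4. The groups covered each other, and its log2 fold change was 0.03 with a 95% interval of −0.34 to 0.39 (edgeR adjusted p = 0.934). Its parent Rps4x had 216, 231, 237 and 209 CPM after sorbate, against 242, 266, 320 and 369 CPM in the controls. The log2 ratio of Rps4l to Rps4x averaged −3.80 ± 0.260 in the sorbate group and −4.25 ± 0.379 in the control group (SD, n = 4 each). The difference of 0.449 had p = 0.0571 in a two-sided exact permutation test, or 0.171 adjusted over 3 pairs of paralogs, where the smallest p possible is 0.0286. For Rpl6l over Rpl6 the difference of log2 ratios was 0.0325 (exact p = 0.686) and for Rps27l over Rps27 it was 0.135 (exact p = 0.2). Reads of such copies may be shared with their parents, so these values are uncertain, and the comparison was chosen after the values were seen.

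Of the 6 names under the count limit, those nearest to it were Rps10 with 276 counts in all, Rpl32l (a processed pseudogene) with 121 and Rpl24 with 85, and farther down Rpl3l with 14, Rpl39l with 3 and Rpl10l with 0. Just inside lay Rpl13a with 1420, Rps4l with 2675 and Rpl6l with 4210. Another gene on the same strand covers 80.3% of the exons of Rps10, 71.5% of those of Rpl24 and 59.3% of those of Rpl13a. The counts of these 3 genes are therefore uncertain. Whether counting used strand is not given in the sources used here: 12 members overlap a gene on the other strand, with a median log2 fold change of −0.41, against −0.40 for the 63 that overlap no gene. Pseudogenes with "-ps" names took 0.0231% ± 0.00250 of counts in the sorbate group and 0.0285% ± 0.00383 in the control group (SD, n = 4 each).

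Some ribosomal subunit genes have names that escape the rule. Rack1, a scaffold on the small subunit, had 230, 239, 235 and 220 CPM in sorbate libraries 1 to 4, against 287, 273, 319 and 336 CPM in control libraries 1 to 4. The groups did not overlap, and it fell by 0.40 on the log2 scale (SE 0.11, edgeR adjusted p = 0.0397), but was not called with library size alone (adjusted p = 0.117). Rps3a1 stood at −0.38 (adjusted p = 0.131) and Fau, a ubiquitin-like fusion, at −0.27 (adjusted p = 0.247).

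Other parts of the translation machinery lay nearer to the median of all genes. Of 8 genes listed with the elongation factors 0 were called lower and 1 higher, with a median of −0.14. The 1 called was Eef2k, with a log2 fold change of 1.17 (SE 0.22, edgeR adjusted p = 0.00884). Eef2k is the kinase that inhibits elongation factor eEF2 and is not an elongation factor itself. Eef1a1 stood at −0.08 (adjusted p = 0.738) and Eef2 at −0.08 (adjusted p = 0.735); both have TOP mRNAs. Of 36 initiation factor genes 0 were called in either direction (median −0.15). Of 26 other genes with TOP transcripts, which share members with these lists, 1 was lower, Rack1, and 0 higher (median −0.15). These lists were not tested against the members.

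Ribosome assembly factors numbered 104, of which 2 were lower, Emg1 at −0.39 and Heatr1 at −0.74, and 0 higher (median −0.08). Among 39 genes of RNA polymerases I and III and their factors, Polr3a was higher at 0.65 and Znrd1 lower at −0.81 (median 0.08). Of 52 genes of the mTORC1 pathway and of regulators of ribosomal protein mRNAs, 5 were higher and 2 lower (median 0.10). The 4 with the lowest p were Mxi1 at 0.72, Mnt at 0.87, Larp4b at 0.45 and Mycl at 1.27. Mxi1 and Mnt antagonise Myc. Larp1 stood at 0.03 (edgeR adjusted p = 0.908), Mtor at 0.30 (adjusted p = 0.116) and Eif4ebp1 at −0.08 (adjusted p = 0.688). Myc had a mean of 17.3 CPM after sorbate and 3.94 CPM in controls, but sorbate 3 alone reached 59.8 CPM, and the adjusted p was 0.207. A list of 27 genes held sensors of free ribosomal proteins and stalled ribosomes and genes linked to them. Of these, 2 were lower and 0 higher. They were Cdkn1a, the p53 target p21, at −5.25 (edgeR adjusted p = 0.00265) and Ccng1 at −0.39 (adjusted p = 0.0320). Neither of these genes encodes a sensor itself.

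Mitochondrial ribosomal protein genes, which serve a separate ribosome, had 3 lower and 1 higher of 77, with a median of −0.10, beside −0.40 in the cytosolic members. They were Mrps22 at −0.62, Mrpl54 at −0.51 and Mrpl50 at −0.37, and Mrps35 at 0.40. Nuclear genes of the respiratory chain had 0 called in either direction of 79 (median −0.02). Proteasome subunits, another set of abundant household genes, had 8 lower and 1 higher of 38, with a median of −0.28. The 4 proteasome genes with the lowest p were Psma1 at −0.57, Psma2 at −0.43, Psmb3 at −0.64 and Psmd14 at −0.50. Several of these counts and signs depended on the scaling. With library size alone the calls were 1 higher and 2 lower among proteasome subunits, 1 and 1 among mitochondrial ribosomal proteins, 6 and 0 in the respiratory chain, and 4 and 0 among assembly factors. They were 1 higher and 0 lower in the elongation factor list, 2 and 0 among initiation factors and 1 and 0 among other TOP genes. They were 2 higher and 1 lower for the RNA polymerases, 8 and 0 in the mTORC1 list and 3 and 1 in the sensor list. The medians on that scale were −0.15 for the proteasome, 0.02 for mitochondrial ribosomal proteins and 0.10 for the respiratory chain. They were 0.05 for assembly factors and 0.10 for the sensor list. With TMM the median of the sensor list was −0.03, so the sign of the last 4 of these lists turned. With library size alone the medians were −0.01 for the elongation factor list, −0.03 for initiation factors and −0.02 for other TOP genes. They were 0.21 for the RNA polymerases and 0.23 for the mTORC1 list, beside −0.26 for the members.

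**Figure D5:**
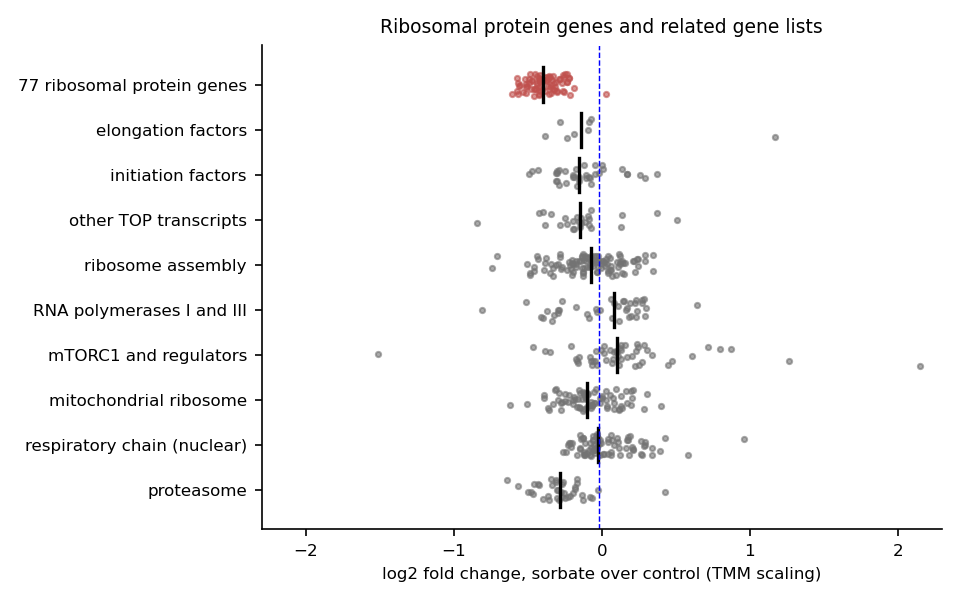
Log2 fold change (sorbate over control, TMM scaling) of each tested gene in 10 lists; each point is a gene, black lines are list medians and the dashed line is the median of all genes tested, −0.02. The ribosomal protein genes form a narrow band with a median of −0.40, proteasome subunits have a median of −0.28, and the other lists centre between −0.15 and 0.10.

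Markers of several liver cell types differed between the groups, and their part in the members' values was not tested. Hepatocyte markers summed to 84706 to 107926 CPM in sorbate libraries and 71228 to 88455 CPM in control libraries, with 1 of 10 called higher, and each of the 10 was detected in both groups. Most of that sum was Alb, with 5462339 counts in the sorbate group against 4026346 in the control group. The hepatocyte list had a median log2 fold change of 0.06, and 4 of the 10 lay below zero. Tat, for example, had 120665 counts against 164017. Kupffer cell and macrophage markers summed to 196 to 380 CPM in sorbate libraries and 273 to 659 CPM in control libraries, with 6 of 10 lower. Red cell markers summed to 251 to 373 CPM in sorbate libraries and 331 to 1379 CPM in control libraries, with 4 of 5 lower. The other tested marker, Alas2, went the other way, with 13772 counts in the sorbate group against 9434 in the control group. The globin gene Hbb-bs had 6451 against 25795, so the red cell sum mixes both directions. Bile duct markers summed to 27.6 to 42.4 CPM in sorbate libraries and 52.0 to 248 CPM in control libraries, with 2 of 4 lower. Most of that sum was Spp1, with 2692 counts in the sorbate group against 11096 in the control group. Sox9 had 153 against 412. The other 2 tested markers went the other way, Krt19 with 126 against 54 counts and Epcam with 70 against 61. Neutrophil markers summed to 1.22 to 2.93 CPM in sorbate libraries and 2.35 to 27.3 CPM in control libraries, with both tested genes lower and Ly6g, Ngp and Camp at 0 counts in the sorbate group. Monocyte markers had 1 of 3 lower, B and plasma cell markers 1 of 3, sinusoidal endothelial markers 1 of 9, and stellate and T or NK cell markers 0 called of 9 and of 1. Control 4, the highest library for 75 members, was also the highest for red cell, bile duct and neutrophil markers. Control 2 was the lowest control for Kupffer, red cell, bile duct, neutrophil and monocyte markers. Intestinal markers had 2 of 3 higher and pancreatic markers 0 of 2 called, and Cdx1 and Cdx2, which define intestinal epithelium, were at 0 counts. These marker calls use TMM. With library size alone 2 of 10 Kupffer markers and 1 of 2 neutrophil markers were lower, 2 of 10 hepatocyte markers were higher, and 1 red cell marker was higher beside the 4 lower, while the counts of the other lists were the same.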

How the data were processed

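Liver libraries of 4 sorbate and 4 control samples were compared, grouped by the treatment in the labels. The deposited table holds raw counts of reads per gene. Per the submitters' processing notes, the tools were FastQC, HISAT2 2.1.0, Subread and edgeR on GRCm38, with the annotation, strand setting and handling of repeated matches not given in the sources used here. The table has 4 further per-sample columns that match no sample and were not used. Replicate numbers follow accession order and pair nothing; within-group libraries differed by more than sampling noise.

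All genes were fitted with edgeR 4.0.16 (R 4.3.3): filterByExpr (count minimum 10), TMM factors, two-sided quasi-likelihood test, Benjamini-Hochberg adjustment over all genes tested, threshold 0.05. DESeq2 1.42.0, limma 3.58.1 and sva 3.50.0 served the alternatives, beside library size alone, upper-quartile factors, pool scaling, no filter, an adjusted p under 0.1 and leaving out each library. Code was checked on simulated data. Positions, gene types and transcript lengths come from GENCODE vM21, where 55227 of the 55487 identifiers were found. Members named were the 8 largest and 8 smallest fold changes, all called, the 6 highest per kilobase and a set of well-studied genes and paralogs; from each other list up to 4 called genes. Single-gene values of 1 member and 1 related gene are not reported here. The members and lists were chosen with earlier results of these data known. Depth is limited by 15773932 counts in the smallest library. Intervals are 95%.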

Additional observations from a re-analysis of the deposited data

How the results depend on the processing

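The count of 12 members called lower was 0 with library size alone, 0 with scaling to the ribosomal protein pool, 0 with 1 surrogate variable, 30 with DESeq2, 63 with limma-voom with sample quality weights, 37 at an adjusted p under 0.1, and 0 to 49 when 1 library was left out; 0 members were called higher in each of these fits. The share of all genes called lower moved as well. It was 6.3% in the main fit, 4.13% with library size alone, 2.01% with pool scaling and 2.2% with 1 surrogate variable. With DESeq2 it was 8.21%, with limma-voom 14.6% and at an adjusted p under 0.1 it was 10.6%. When 1 library was left out it was 2.64 to 14.1%. The causes were not tested. The median log2 fold change of −0.40 was −0.00246 with pool scaling, which sets it near zero by construction, and lay between −0.45 and −0.26 in the other settings. The difference in the share of counts, −0.222 percentage points, was −0.336 on TMM-scaled library sizes, chosen after seeing the data, and −0.276 to −0.147 when 1 library was left out. Under pool scaling 13 of the 37 named members changed sign: Rps9 at 0.15, Rpl17 at 0.16, Rpl4 at 0.15, Rpl35a at 0.17, Rps2 at 0.15, Rpl19 at 0.16, Rpl9 at 0.19, Rpl10 at 0.0214, Rplp0 at 0.0481, Rps6 at 0.11, Rpl11 at 0.0469, Rpl6l at 0.0890 and Rps27l at 0.13. Rps4l, at 0.03, was −0.00850 with upper-quartile factors and between −0.0697 and 0.124 when 1 library was left out. No paired analysis was possible because the labels give no numbers shared between the groups.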
